A study of Mus musculus with 6 samples.

Results

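Of 130 targeting guides that could be compared in a pooled CRISPR-Cas9 growth screen, 33 (25.4%) held a start codon triplet. Membership asked that a targeting guide reach 10 counts in 3 or more of the 6 libraries and that its sequence read ATG or the reverse complement CAT, so the choice used no change between the days. The whole table named 151 guides, of which 145 were targeting and 6 were controls. Another 4 targeting guides held the triplet, Fbxo15 guide 2, Ipo7 guides 1 and 2 and Kdm6b guide 1, and had a count of 0 in each library. The 33 guides fell on 27 host genes. All libraries came from the mouse embryonic stem cell line #693 ES C57BL/6, of genotype C57/BL6, infected with a pool of lentiviral guides against upstream translons. The vector, lentiCRISPR v2, carries Cas9 and the guide together, so cells of both groups carried both. The groups were day 0 and day 10, with 3 libraries each that the labels call biological replicates. The results rest on 1 cell line, and a table of guide counts cannot show the stem cell markers, so the labelled cell type was not checked.

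An upstream translon is a translated stretch that an mRNA carries ahead of its main coding sequence. Ribosomes scan from the 5′ end and mostly begin at ATG, more often where a purine stands 3 bases before it and a G directly after it, which is the Kozak context. Near-cognate triplets that differ from ATG by a single base can also serve as starts. Cas9 cuts both DNA strands 3 bases from the end of the guide that borders its NGG motif (the PAM), which lies between positions 17 and 18 of a 20-base guide. Repair leaves small insertions or deletions there. A cut inside or next to a start codon can remove the codon itself, whereas a cut farther away in a coding stretch shifts its frame. Guides whose cut slows growth become rarer in the culture with time.

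The sequences that the results turn on are given 5′ to 3′, with each ATG or CAT in capitals. The first 6 are the guides that passed the test described further on.
Phgdh guide 2: cgaaggcCATtgctagagtc
Rps12 guide 2: tcaccgcCATGgccgaggaa
Trim28 guide 1: tcgagATGcggccaagccgc
Dppa5a guide 2: ctggttccttggcaggATGa
Spns1 guide 1: gtgCATcggaccacgctcct
Tbrg4 guide 1: acggcCATGATGctgggcgc

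The next 5 complete the guides whose triplet is split by the expected cut, together with Dppa5a guide 2.
Rps6 guide 1: gctcggctgtgtcaagATGa
Phb guide 1: ccggagctggggaattCATG
Nhp2 guide 1: acaactccgtcccggCATag
Nhp2 guide 2: ccgcgtggttcctctATGcc
Ap2m1 guide 2: ctgggggcgggcggaCATct

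The last 4 are shown because they share a site with another guide or read a stop codon right after the ATG, and were chosen after their values were seen.
Dppa5a guide 1: gggtcacCATCATcctgcca
Tbrg4 guide 2: ATGtagcgtgttctcgaaaa
Psmd1 guide 1: tcggattaATGgattagaga
Psmd1 guide 2: cggattaATGgattagagaa

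The triplet was not common among these guides. ATG or CAT, searched on both strands, stood in 37 of 145 targeting guides (25.5%), which placed it at rank 27 of the 32 triplet classes that pair a triplet with its reverse complement. The most common class, CCG with CGG, holds only G and C, and the least common, ATA with TAT, only A and T. Whether the rank of ATG reflects more than base composition was not tested. As a comparison, 31.9% of the first 20 transcribed bases of 32851 RefSeq promoter windows (GRCm38.p6) held it. Those windows were not limited to the hosts or to sites beside a PAM, so the 2 shares are not like for like. The 33 guides held 41 triplets. There were 18 guides with ATG as written, 11 with CAT alone and 4 with both, and 6 guides held 2 triplets and 1 held 3. The table gives no strand, so for most guides it is not known which strand is transcribed. Whether a triplet begins an upstream translon, the host's main coding sequence or neither was not analysed for any guide.

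Few of the triplets stood in a full Kozak context. For 29 of the 41 triplets the guide showed both the base 3 before and the base after the ATG. Both matched the context in 6 cases, on 5 guides: Dppa5a guide 1, Phgdh guide 2, Rpl32 guide 2, Rps12 guide 2 and Tbrg4 guide 1. One of the 2 bases matched in 17 cases and neither in 6. A stop codon in frame with the ATG stood inside 3 guides. In Tbrg4 guide 2 TAG followed the ATG directly, and in both Psmd1 guides TAG was the codon after the next.

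Guides with the triplet were called at a share near that of all guides. Day 10 was set against day 0 by the quasi-likelihood test of edgeR on counts, and a guide was called where its p, after Benjamini-Hochberg adjustment across all 136 tested guides, was under 0.05. Of the 33 guides 6 were called (18.2%), against 21.3% of all tested guides. Lower at day 10 were 4 (12.1%, against 14.7% of all) and higher were 2 (6.06%, against 6.62% of all). Among the 97 other targeting guides 23 were called (23.7%), 16 lower (16.5%) and 7 higher (7.22%). Before adjustment 10 of the 33 had a p under 0.05 (30.3%, against 34.6% of all). The libraries of day 0 and day 10 did not overlap in counts per 1e6 counts (CPM) for 13 of the 33 (39.4%, against 38.2% of all and 40.2% of the other targeting guides). With the replicate number as a block 1 of the 33 was called (3.03%), Rps12 guide 2, against 8.82% of all tested guides. Scaling by size factors from the 6 control guides left 0 of the 33 called in edgeR, with 3 at a p under 0.05 before adjustment, and 0 of all 136.

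The middle of the distribution hardly differed and the low end reached further. The median log2 fold change, where a negative value means fewer counts at day 10, was −0.04 over the 33 guides and 0.02 over the 97 others, a difference of −0.06. Within screens 1, 2 and 3 alone the difference in medians was −0.14, −0.04 and −0.02. There were 21 guides with a negative and 12 with a positive value, and 29 of the 33 lay within 0.5 of 0, as did 86 of the 97 others. The 3 lowest values of all 136 tested guides belonged to guides with the triplet, Rps6 guide 1, Phgdh guide 2 and Rps12 guide 2. The highest of the 33 was 0.41, and the highest of the others 0.54. In GC content and abundance the groups differed too. Median GC content was 55% for the 33 and 65% for the others, and median abundance at day 0 was 2954 against 5371 CPM. The median standard error (SE) of the log2 fold change was 0.15 against 0.11. With the GC trend of each library removed, the difference in medians was −0.08, and with the replicate block added to this −0.04. Among guides with a day 0 mean of at least 100 counts it was −0.03, and that minimum removed Rps6 guide 1 and Phgdh guide 2.

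Depth was uneven and limited the rarest guides. Named guides had between 21991 counts, in day 10 replicate 3, and 784149 counts, in day 10 replicate 2. In day 10 replicate 3 the median count of the 33 guides was 61, 5 of them had fewer than 10 counts, and a count of 0 allows up to 3 counts, or 136 CPM. In day 10 replicate 1 the same limit is 4.68 CPM. These limits cover counting error only.

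Rps6 guide 1 was directed at the host of a small-subunit ribosomal protein that is a phosphorylation target of growth signalling. It was the rarest of the 33, with 136, 52.9 and 95.2 CPM in day 0 replicates 1 to 3. At day 10 it had 0, 28.2 and 0 CPM, which are 0, 22 and 0 counts. All 3 day 10 libraries were below all 3 day 0 libraries, but the 0 in replicate 3 could stand for up to 136 CPM and so says nothing about a fall there. At −2.68 ± 1.05 (SE), the log2 fold change missed the threshold (edgeR adjusted p = 0.111). It was −1.80 without day 10 replicate 1 (edgeR adjusted p = 0.0144) and −7.81 without day 10 replicate 2 (edgeR adjusted p = 0.00515).

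The position of Rps6 guide 1 could be read. It matched the RefSeq promoter window of Rps6 on the transcribed strand at chr4:86857323-86857342 (GRCm38.p6, gene on the minus strand), followed by AGG, which has the form of a PAM. That is bases 26 to 45 from the annotated transcript start, and the ATG lies at bases 42 to 44 (chr4:86857324-86857326). The ATG takes guide positions 17 to 19, so the expected cut falls after its first base. Whether it begins an upstream translon or the coding sequence was not analysed here.

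Phgdh guide 2 was directed at the host of phosphoglycerate dehydrogenase, which begins serine synthesis from a glycolytic intermediate. It had 243, 264 and 309 CPM in day 0 replicates 1 to 3 and 92.1, 75.5 and 136 CPM in day 10 replicates 1 to 3, the last resting on 3 counts. All day 10 libraries were lower than all day 0 libraries. The log2 fold change was −1.66 ± 0.38 (SE; adjusted p = 0.0131 by edgeR), and the adjusted p was 0.0790 with the replicate block and between 0.0771 and 0.170 without single day 0 libraries. Its CAT lies 7 bases from the expected cut and reads as an ATG in full Kozak context on the other strand.

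Rps12 guide 2, against the host of another small-subunit ribosomal protein, had the smallest adjusted p of the 33. It went from 3846, 3974 and 4528 CPM in day 0 replicates 1 to 3 to 2270.2, 2120.0 and 1951 CPM in day 10 replicates 1 to 3. The groups were well apart. The log2 fold change was −0.94 ± 0.12 (SE; adjusted p = 7.3e-04 by edgeR), and −0.93 with the replicate block (edgeR adjusted p = 0.00311). With size factors from the control guides the edgeR adjusted p was 0.0556, and in the 18 other settings it was under 0.05. The palindromic CCATGG of this guide gives an ATG in full Kozak context on both strands, 6 and 7 bases from the cut. Whether either ATG begins an upstream translon or the main coding sequence was not analysed here.

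Trim28 guide 1 and Dppa5a guide 2 fell by less. Trim28 is a corepressor that zinc finger proteins bring to retrotransposons in embryonic stem cells, and its guide 1 went from 2035, 1912 and 1986 CPM to 1457, 1358 and 1361 CPM. This was a log2 fold change of −0.50 ± 0.15 (SE; adjusted p = 0.0394 by edgeR). Dppa5a encodes an RNA-binding protein that marks pluripotent cells, and its guide 2 went from 15726, 15623 and 15822 CPM to 12416, 14182 and 13204 CPM. Its log2 fold change was −0.24 ± 0.07 (SE; adjusted p = 0.0394 by edgeR). For both guides all day 10 libraries lay below all day 0 libraries. With the replicate block the adjusted p-values were 0.0790 and 0.0706.

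Guides against Spns1 and Tbrg4 rose. Spns1 encodes a lysosomal phospholipid transporter, and guide 1 went from 18793, 18575 and 18495 CPM to 23853, 22629.7 and 19783 CPM. Its log2 fold change was 0.26 ± 0.07 (SE; adjusted p = 0.0341 by edgeR). Tbrg4 encodes a mitochondrial RNA-processing protein, and guide 1 went from 8656, 9041 and 8379 CPM to 13614, 9879 and 10209 CPM, with day 10 replicate 1 highest. Its log2 fold change was 0.39 ± 0.12 (SE; adjusted p = 0.0394 by edgeR), and 0.19 without day 10 replicate 1. The groups did not overlap for either guide. With the replicate block the adjusted p-values were 0.0557 and 0.0706.

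The highest value belonged to guide 2 against Etf1, the host of the release factor that ends translation at stop codons. It went from 847, 978 and 1026 CPM to 1408, 1121 and 1270.5 CPM, and every day 10 library was above every day 0 library. The log2 fold change of 0.41 ± 0.18 (SE) did not pass the threshold (edgeR adjusted p = 0.141).

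Each of the calls except that of Rps12 guide 2 was lost when any 1 of the day 0 libraries was left out. In those 3 fits 1 of the 33 guides passed in each, and 2.21%, 3.68% and 7.35% of all tested guides. Without day 10 replicate 1, 10 of the 33 passed, 7 of them lower, and 34.6% of all tested guides. The counts among the 33 thus moved in the same direction as those of the whole table.

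A cut through the triplet did not go with a common change. The triplet nearest the cut was split by it in 6 guides, lay within 3 bases of it in 8 and farther away in 19. Of the 6, 1 was called (Dppa5a guide 2), of the 8, 0 in edgeR (0 also before adjustment), and of the 19, 5, read against the 21.3% of all tested guides. The median log2 fold changes of these classes were −0.12, −0.01 and −0.07. The 6 guides with a split triplet ran from −2.68, for Rps6 guide 1, to 0.22, and 3 were negative and 3 positive.

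Both Nhp2 guides split the same ATG. Nhp2 is part of the particle that guides pseudouridylation of ribosomal RNA. Guide 2 lies at chr11:51619775-51619794 and guide 1, on the opposite strand, at chr11:51619788-51619807 (GRCm38.p6, gene on the plus strand), each followed by the form of a PAM, GGG and AGG. Both hold the same ATG, at chr11:51619790-51619792, which is bases 18 to 20 of the transcript, and their expected cuts are 1 base apart inside it. Guide 1 had 8763, 8979 and 7873 CPM at day 0 and 9128, 8456 and 7578 CPM at day 10. Guide 2 had 4703, 5701 and 5165 CPM at day 0 and 5914, 6330.5 and 4855 CPM at day 10. The days overlapped for both. The log2 fold changes were 0.0029 ± 0.088 (SE; adjusted p = 0.994 by edgeR) and 0.17 ± 0.12 (SE; adjusted p = 0.333 by edgeR).

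The remaining guides with a split triplet did not pass either. Phb guide 1, against the host of the mitochondrial scaffold protein prohibitin, had 428, 414 and 657 CPM at day 0 and 507, 326 and 318 CPM at day 10. Its log2 fold change was −0.35 ± 0.29 (SE; adjusted p = 0.456 by edgeR), and −0.74 without day 10 replicate 1 (edgeR adjusted p = 0.0178). Ap2m1 guide 2, against the host of a subunit of the clathrin adaptor AP-2, had 1665, 1031 and 1357 CPM at day 0 and 1533, 1359.5 and 1951 CPM at day 10. Its log2 fold change was 0.22 ± 0.22 (SE; adjusted p = 0.541 by edgeR). For both guides the days overlapped.

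Context was described in the same way. Of the 5 guides with a full Kozak context 3 were called, 2 lower (Phgdh guide 2 and Rps12 guide 2) and 1 higher (Tbrg4 guide 1). Of the 28 others 3 were called, and 21.3% of all tested guides were. The 28 include guides that do not show both bases of the context, such as Ap2m1 guide 2 and Parg guide 2. They are therefore not a list of guides known to lack it. The other 2 guides with the full context were Rpl32 guide 2, at −0.36 ± 0.17 (SE), and Dppa5a guide 1, at −0.06 ± 0.44 (SE). The number of guides is small, and for all 5 the triplet lay more than 3 bases from the cut. These triplets may be starts of the main coding sequence rather than of upstream translons, which was not tested.

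The comparison with the other guide of a host asks whether the guide with the triplet changed differently from another guide named for that host. Partner guides need not cut at the same site. The Rps6 guides, for example, lie at bases 26 to 45 and 2 to 21 from the annotated transcript start. For 19 hosts exactly 1 of 2 tested guides held it, and none of these partner guides did. The guide with the triplet had the lower log2 fold change in 14 of the 19 pairs and the higher one in 5. This held for 12, 11 and 12 pairs within screens 1, 2 and 3 alone, and for 12 to 15 pairs when single libraries were left out. The 2 guides of a host changed in the same direction in 13 of the 19. Partners were not matched for abundance, and in most of the 19 pairs the guide with the triplet was the rarer at day 0. Its mean log2 ratio to the partner there was, for example, −3.74 for Rps6 and −3.26 for Phgdh, but 1.06 for Parg and 3.05 for Spns1. Whether abundance bears on the 14 of 19 was not tested.

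No pair passed the threshold after adjustment. The test took the log2 ratio of the 2 guides' counts in each library, which does not depend on scaling, and compared the days with limma over all 63 hosts with 2 tested guides. Of the 63 pairs 0 were called by limma after adjustment. Before adjustment 10 had a p under 0.05 (15.9%), and 1 of these was among the 19 (5.26%) and 9 were among the 38 pairs without any triplet (23.7%). Neither edgeR's test of the interaction nor any other alternative called 1 of the 19. The SE of the change in ratio ran from 0.11 to 1.41 over the 19 pairs, so small differences between partners could not be seen. The median change in ratio was −0.15.

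The Nudt4 pair had the smallest p of the 19. Nudt4 encodes a hydrolase of diphosphoinositol polyphosphates. The log2 ratio of guide 1, with the triplet, to guide 2 was −2.34, −2.46 and −2.36 in day 0 replicates 1 to 3 and −2.81, −2.53 and −2.78 in day 10 replicates 1 to 3. All day 10 ratios were lower, by 0.32 ± 0.12 (SE) in the mean (limma adjusted p = 0.253). Guide 1 itself was level, with a log2 fold change of −0.01 ± 0.11 (SE), and guide 2 rose by 0.30 ± 0.09 (SE; adjusted p = 0.0394 by edgeR, and 0.0659 with the replicate block).

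For Rps6 and Phgdh the partner without the triplet fell. Rps6 guide 2 went from 1285, 1146 and 1260.5 CPM to 846, 829.6 and 726 CPM, with a log2 fold change of −0.59 ± 0.17 (SE; adjusted p = 0.0394 by edgeR, and 0.0790 with the replicate block). The change in the Rps6 ratio was −2.91 ± 1.41 (SE, limma adjusted p = 0.477) and depends on the pseudocount, since guide 1 had counts of 0. Phgdh guide 1 went from 2580.4, 2485 and 2841 CPM to 1455, 1459 and 1361 CPM, and its log2 fold change was −0.88 ± 0.14 (SE; adjusted p = 0.00311 by edgeR). The change in the Phgdh ratio was −0.52 ± 0.30 (SE, limma adjusted p = 0.582). For Sfpq, which encodes a splicing and paraspeckle protein, and Rpl41, which encodes a small protein of the large ribosomal subunit, the change in ratio was −0.24 ± 0.16 and −0.37 ± 0.30 (SE, limma adjusted p = 0.655 for both). Rps12 and Arih2 had no second tested guide.

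For 6 hosts both guides held a triplet, and in 4 of them, Nhp2, Dppa5a, Gm20594 and Psmd1, the guides overlapped by 7 to 19 bases and shared a triplet. Of these 6 pairs limma called 0, and 0 had a p under 0.05 before adjustment. The Dppa5a guides meet on opposite strands at 1 ATG, with cuts 5 bases apart. Guide 2 was abundant, as given above, while guide 1 had 224, 176 and 263 CPM at day 0 and 217, 139.5 and 499 CPM at day 10, and its days overlapped. The Gm20594 guides, with cuts 5 bases apart, both had higher CPM in all day 10 libraries, with log2 fold changes of 0.24 ± 0.10 and 0.16 ± 0.07 (SE; adjusted p = 0.125 and 0.141 by edgeR).

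The Psmd1 guides differ by a shift of 1 base, and they parted in 1 library. Psmd1 encodes a subunit of the proteasome's regulatory particle. Guide 1 had 4947, 4247 and 4619 CPM at day 0 and 4728, 4714 and 5899 CPM at day 10. Guide 2 had 1616, 1551 and 1594 CPM at day 0 and 0, 1770.5 and 1951 CPM at day 10. The 0 counts in day 10 replicate 1 put guide 2 at least 339-fold below its day 0 mean there, against a limit of 3 counts in that library, while the other libraries of day 10 lay above day 0. Its log2 fold change was −0.50 ± 1.11 (SE; adjusted p = 0.830 by edgeR). Without this guide 6 of the 32 others were called, as with it, and 23.0% of all tested guides.

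Hosts were grouped by the first letters of their gene symbols, so the groups are not complete classes of function. Of the guides with the triplet, those on ribosomal protein hosts (Rps and Rpl) had the lowest median. All 4 such guides with the triplet had negative values, and 1 was called (25%, against 21.3% of all tested guides). Besides Rps6 guide 1 and Rps12 guide 2 these were Rpl32 guide 2, whose days did not overlap (edgeR adjusted p = 0.165), and Rpl41 guide 1, at −0.34 ± 0.37 (SE), with 3 counts in day 10 replicate 3. Their median was −0.65. Of the 7 guides without the triplet on ribosomal protein hosts, 5 were negative and 3 were called, all lower, with a median of −0.30, and with the replicate block 0 of these calls were left. Negative values thus stood in both lists, and the difference between the lists was not tested. The median over all 136 tested guides was 0.0024.

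Of 3 guides with the triplet on hosts named Ddx or Hnrnp, which encode RNA helicases and RNA-binding proteins, 0 were called in edgeR and 1 had a p under 0.05 before adjustment. Of all tested guides 21.3% were called and 34.6% had such a p, and 3 guides are too few to show a difference from these shares. The guide with a p under 0.05 before adjustment is given next. It was Hnrnpf guide 2, at −0.33 ± 0.15 (SE; adjusted p = 0.141 by edgeR), directed at the host of a splicing regulator. Guides 2 against the RNA helicases Ddx5 and Ddx17 had −0.13 ± 0.08 and 0.14 ± 0.08 (SE). Of the 5 guides without the triplet in this group, which also takes in Cnot1, 3 were called, all lower, and the median was −0.45. Dppa5a and Sfpq, whose proteins also bind RNA, have other names and were counted among the remaining hosts. Of 3 guides with the triplet on hosts named Psm or Cct, both Psmd1 guides and Cct7 guide 2 against a chaperonin subunit, edgeR called 0, and 0 had a p under 0.05 before adjustment. This count of 3 is likewise too small to set against the shares of all tested guides. Cct7 guide 2 was level, at −0.0037 ± 0.074 (SE), and 1 of 5 guides without the triplet was called in this group, which also takes in Herc4 and Hsp90ab1. The ubiquitin ligase hosts Huwe1 and Arih2 were counted among the remaining hosts. Guides 1 against them had −0.19 ± 0.35 and −0.0015 ± 0.20 (SE) and were not called. None of the 12 tested guides on hosts named Eif, Bzw or Pabp held the triplet, and the release factor Etf1 falls outside these names.

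On the remaining hosts 5 of 23 guides with the triplet were called (21.7%, against 21.3% of all tested guides), 3 lower and 2 higher, and 12 of 68 without it, 7 lower and 5 higher. With the replicate block these were 0 of 23 and 6 of 68. Of the 23 guides 21 had a log2 fold change within 0.5 of 0. Parg guide 2, against the host of the enzyme that removes poly(ADP-ribose), ends in its ATG and was the most abundant of the 33. It had 23379, 24690.0 and 23442 CPM at day 0 and 22802, 25757 and 24457 CPM at day 10, a log2 fold change of 0.03 ± 0.06 (SE). Clpx guide 2, against the host of the unfoldase of a mitochondrial protease, had −0.07 ± 0.07 (SE). Tbrg4 guide 2, whose ATG is followed by a stop codon, went from 2931, 3146 and 2647 CPM to 2103, 2947 and 3766 CPM. Its days overlapped and its log2 fold change was −0.04 ± 0.19 (SE).

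The triplet also stood in 2 of the 6 control guides. In safe-targeting guide 3 it reads as an ATG in full Kozak context on each strand. Safe-targeting guide 3 had 2152, 2299.8 and 1951 CPM at day 0 and 1249, 1691 and 1996 CPM at day 10, a log2 fold change of −0.42 ± 0.19 (SE; adjusted p = 0.141 by edgeR). Non-targeting guide 3 had 1704, 1833 and 2014 CPM at day 0 and 3857, 2331 and 1588 CPM at day 10, at 0.55 ± 0.25 (SE; adjusted p = 0.141 by edgeR). The days overlapped for both. Of the 33 values 28 lay between those of these controls, and 5 were below them: Rps6 guide 1, Phgdh guide 2, Rps12 guide 2, Trim28 guide 1 and Psmd1 guide 2.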

How the data were processed

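The authors deposited raw counts per guide sequence for 6 libraries, per the file headers. Bowtie2 2.3.4.3 is named in the submitters' processing notes, and the counting rule and mismatches allowed are not given in the sources used here. Missing entries were read as 0. Unnamed sequences, 1.25% to 1.48% of counts, were left out. Host chromosomes and promoter windows came from RefSeq (GRCm38.p6): all 73 hosts matched a symbol, 57 had a window, and 9 of 145 targeting guides lay in one, 3 of them with the triplet. The windows run from 250 bases before to 50 after a start. No protein or genome sequence was used, and guides on chromosome 18 are printed without sequence.

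Guides were fitted with edgeR 4.0.16 (R 4.3.3; TMM, quasi-likelihood F test, day as the only term), and SE is the fold change divided by the square root of F. Log2 ratios of partner guides (pseudocount 0.5) were fitted with limma 3.58.1. All p-values were adjusted with the Benjamini-Hochberg method. Changes within screens used CPM plus 1. Python 3.11.15 and pandas 2.3.3 did the rest. The labels do not say whether replicates came from separate infections, so p-values cover the spread between these libraries.

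In the column names a number marks a screen. The fits reported leave it out, and the replicate block adds it as a term. The correlations of their deviations from the day means were −0.0929, −0.198 and −0.0170. The block is one alternative. The others were DESeq2 1.42.0 and its size factors, library totals, control-guide scaling, count filters, GC trend removal, a threshold of 0.1, narrower definitions of the triplet, single libraries left out and, for pairs, a pseudocount of 5, count weights and edgeR's interaction test.

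The guides with full values were those past the threshold, the 3 lowest and 3 highest, those split by the cut, and the 5 partner pairs of smallest p; others were added after their values were seen. A match to the host's protein start was planned and not run. Members and lists were chosen with earlier results of these data known. The tests were tested on simulated data: of guides changed by a log2 of 0.5, 73.6% were called, and of those changed by 1, 100%. For pairs these shares were 33.9% and 91.8%. The simulated counts had a spread set by hand for each day, the same for all guides, with no screen effect and no guide lost from a library. These shares therefore need not hold for the real libraries.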

Additional observations from a re-analysis of the deposited data

How the results depend on the processing

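Scaling to the control guides, the replicate block and the libraries used moved the counts most, and the cause was not tested. The report gives 6 of 33 guides past the threshold (18.2%, against 21.3% of all tested guides), 4 lower and 2 higher. Control-guide size factors left 0 (0 lower, 0 higher), and 0 of all 136 tested guides. The control-guide scalings added after the data were seen, the geometric mean of their counts and their sum, left 2 (2 lower, 0 higher) and 4 (4 lower, 0 higher), and the sum moved the median of all guides to −0.11. Of all tested guides these 2 scalings called 6.62% and 17.6%. With the replicate block 1 guide was left (1 lower, 0 higher), and 8.82% of all tested guides. Removal of the GC trend left 3 (3 lower, 0 higher), or 8 (3 lower, 5 higher) together with the replicate block, and 8 (4 lower, 4 higher) with Psmd1 guide 2 left out, a setting added after the data were seen. Of all tested guides these GC settings called 8.09%, 18.4% and 24.4%. The calls of GC trend removal with the replicate block took in both Psmd1 guides. Guide 2, with its 0 counts in day 10 replicate 1, was at −1.28 (edgeR adjusted p = 3.2e-04) and guide 1 at 0.34 (edgeR adjusted p = 0.0381). Without single libraries there were 1 to 10 guides, 1 to 7 lower and 0 to 3 higher, and 2.21% to 34.6% of all tested guides. Without day 0 replicate 1, 2 or 3 there was 1. Guides with ATG as written gave 4 of 22 (3 lower, 1 higher), and those with the triplet split by or within 3 bases of the cut gave 1 of 14 (1 lower, 0 higher). DESeq2, its size factors, library totals, no count filter and an adjusted p under 0.1 each gave 6, and a day 0 mean of at least 100 counts gave 5. Apart from the threshold of 0.1, these settings called 20.6% to 21.3% of all tested guides. The difference in medians stayed negative in all 21 alternatives and ran from −0.12, without day 10 replicate 2, to −0.0097. Partner pairs past the threshold stayed at 0 in all 11 alternatives. The 3 lowest of all tested guides held the triplet in each setting except the minimum of 100 counts, which removed Rps6 guide 1 and Phgdh guide 2 and left 1. They were not always the same guides. With the replicate block, alone or with GC trend removal, and without day 10 replicate 2, Psmd1 guide 2 took the place of Rps12 guide 2. Psmd1 guide 2 is low only through its 0 counts in day 10 replicate 1. For the guides named by the rule, 185 comparisons with an alternative kept their side of the threshold, 38 lost it, 3 gained it and 0 reversed. The 185 include guides that were not called to begin with, and all 38 losses fell on the 6 called guides. Rps12 guide 2 passed in 18 of 19 alternatives, Phgdh guide 2 in 12 of 18 and Trim28 guide 1 in 12 of 19. Dppa5a guide 2, Spns1 guide 1 and Tbrg4 guide 1 each passed in 11 of 19.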

Other observations

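Among the guides with the triplet that had no count in any library, both Ipo7 guides hold CATG, which reads as ATG on either strand. Ipo7 encodes a nuclear import receptor. With Kdm6b guide 1, against the host of a histone demethylase, and Fbxo15 guide 2, against the host of an F-box protein of pluripotent cells, they make 4 of the 15 named guides without a count. Their change over the screen could not be measured.

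Both Gm20594 guides passed the threshold after removal of the GC trend together with the replicate block, at log2 fold changes of 0.37 (adjusted p = 0.0332 by edgeR) and 0.39 (adjusted p = 0.00238 by edgeR). The same held for GC trend removal with Psmd1 guide 2 left out, at 0.32 and 0.33. Guide 2 also passed without day 10 replicate 1, at 0.18, and neither passed in the 16 other settings tried.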
